A study of Homo sapiens with 20 samples.

Results

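CTCF ChIP-seq peak lists from control-transfected IMR90 cells were compared between a standard chromatin immunoprecipitation protocol and a commercial low-cell protocol. IMR90 is a normal human lung fibroblast line. The 4 lists compared are 2 standard and 2 low-cell lists out of 20 samples in the series, which also covers histone marks, CTCF siRNA and the prostate cancer line LNCaP. All 4 libraries came from cells that received 20 nM of a non-targeting siRNA pool and were collected at 144 h, and CTCF was precipitated in each. The groups therefore differ in protocol, and the labels name no other difference in treatment. Protocol also goes with number of reads, read length, aligner and removal of duplicate reads, so these cannot be told apart. The study describes biological duplicates for the standard protocol and duplicates for the low-cell one.

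CTCF is a zinc-finger protein that binds a long, conserved DNA motif. It blocks contact between enhancers and promoters at insulators, and it halts the cohesin complex where chromatin loops and topologically associating domains end. A large share of its sites is bound in most cell types, and the strength of binding depends in part on how well the site matches the core motif. A low-cell protocol starts from far fewer cells than a standard one, so each library samples fewer genome copies.

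A standard site was defined as a merged region with a peak in both standard lists, and a low-cell site as one with a peak in both low-cell lists, on chromosomes 1 to 22 and X. Peaks were matched by an overlap of at least 1 bp. The rule gave 30522 standard sites and 16816 low-cell sites. Fold enrichment is the height of a peak over its local background, as deposited, and is not scaled between libraries. Peaks that are missing from a list fell below a calling threshold, so a list cannot show how weakly such a site was bound, nor whether fewer cells carried CTCF there or each cell carried less.

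The low-cell lists were shorter. Standard replicates 1 and 2 held 35717 and 36887 peaks, and low-cell replicates 1 and 2 held 20179 and 19097 peaks. The mean of the low-cell lists was 19638 ± 765 peaks (SD, n = 2) and that of the standard lists 36302 ± 827 peaks (SD, n = 2), so the low-cell lists were 54.1% as long. The protocols did not overlap, but with 2 libraries against 2 an exact two-sided permutation test cannot give a p below 0.33, and it gave 0.33. Median fold enrichment was 11.1 and 11.3 in the standard lists and 8.15 and 7.76 in the low-cell lists. The largest q-value was between 0.0420 and 0.0452 in all 4 lists. The number of reads is not given by the peak files. The study's library list gives more reads to each standard library than to either low-cell library, and the part of depth in the lengths was not tested.

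The labelled cell line was checked against LNCaP control lists, because the growth protocol entered for the standard IMR90 samples names LNCaP. Among standard sites over 20-fold enrichment that lacked a LNCaP peak, 54.3% (95% Wilson interval 40.2 to 67.8, n = 46) had a peak in low-cell replicate 1 and 60.9% (46.5 to 73.6) in low-cell replicate 2. Among LNCaP sites over 20-fold enrichment that lacked a standard IMR90 peak, these shares were 9.39% (6.16 to 14.1, n = 213) and 7.51% (4.68 to 11.9). The low-cell lists therefore shared the strong sites of the standard IMR90 lists far more often than the strong LNCaP sites. The IMR90 sites were taken from the standard lists, so the check compares lists and does not test the standard label by itself. Without the limit on enrichment the shares were 9.91% and 9.63% of 3603 IMR90-only sites against 4.41% and 4.00% of 6351 LNCaP-only sites. Peak lists hold no expression, so fibroblast marker levels could not be read. Wilson intervals here and below cover counting error only.

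Sequences of 54 bases around the CTCF core consensus are given as examples of sites that the protocols kept or missed. The consensus is a pattern of 14 letters, some of which allow more than 1 base, and its best match within 100 bp of the summit is in capitals, on the strand that carries the match. Sequences and coordinates are from GRCh37 (hg19). The first is among the 5 strongest standard sites found in both low-cell lists, lies at chr14:104544434-104544487 on the plus strand between genes, 7562 bp from ASPG, and has 1 mismatch. It is the best match of these 5, and the others have 2 or 3 mismatches. The second is the strongest standard site found in neither low-cell list, at chr6:32383376-32383429 on the plus strand, 8418 bp from BTNL2 in the HLA region, also with 1 mismatch.
strong site kept: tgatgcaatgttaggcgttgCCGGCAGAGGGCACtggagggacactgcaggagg
strong site missing: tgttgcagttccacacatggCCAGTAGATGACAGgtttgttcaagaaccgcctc

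A further pair shows weak standard sites that were strong in the low-cell lists, both with no mismatch to the consensus and both rich in G and C. They lie at chr6:2634851-2634904 on the minus strand, in an exon of the non-coding gene LINC02521, and at chr20:48687958-48688011 on the minus strand, 9682 bp from UBE2V1. They are the best matches among the 5 weak standard sites with the highest low-cell values. The others of these 5, at HCRTR1, at ZBTB34 and near TMEM270, had 3, 3 and 2 mismatches.
weak standard site, chromosome 6: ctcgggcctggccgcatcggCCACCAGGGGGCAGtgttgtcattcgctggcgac
weak standard site, chromosome 20: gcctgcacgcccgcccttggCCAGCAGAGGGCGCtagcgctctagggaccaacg

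The last pair shows sites called by the low-cell protocol alone. The sequence at chrX:114960562-114960615 on the minus strand, with 2 mismatches, lies in an intron of the non-coding gene DANT1 and was identical over all 54 bases to that of 2 other sites of the same tandem array. The sequence at chr11:1853826-1853879 on the minus strand, with no mismatch, lies in an intron of SYT8 and does not recur in the assembly.
low-cell only, DANT1: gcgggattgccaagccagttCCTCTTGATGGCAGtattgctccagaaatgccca
low-cell only, SYT8: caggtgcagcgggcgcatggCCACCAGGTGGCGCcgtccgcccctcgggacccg

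To determine which standard sites the low-cell protocol recovered, each standard site was looked up in both low-cell lists. Of 30522 standard sites, 15449 or 50.6% (50.1 to 51.2) had a peak in both low-cell lists, 3974 or 13.0% had a peak in 1 of them, and 11099 or 36.4% had a peak in neither. Low-cell replicate 1 alone held 58.3% of them and low-cell replicate 2 alone 55.9%. In the opposite direction, 91.4% (91.0 to 91.8) of low-cell sites had a peak in both standard lists. Peaks found in a single standard list were recovered far less often. Only 5.33% and 4.22% of the 5137 peaks unique to standard replicate 1 had a low-cell peak in replicates 1 and 2, and 9.32% and 8.66% of the 6307 peaks unique to standard replicate 2. Peaks found in a single low-cell list were mostly known to the standard protocol, since 81.1% of 3288 and 82.2% of 2224 such peaks overlapped a peak of at least 1 standard list.

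Recovery rose with standard fold enrichment in every step. The standard sites were divided into 10 equal groups, or deciles, by mean standard fold enrichment, each of 3052 or 3053 sites. In the lowest decile, which reached up to 6.45-fold, 9.43% (8.45 to 10.5) of sites had a peak in both low-cell lists. The next deciles were recovered at 14.7%, 22.8%, 32.9% and 45.2%. From decile 6 on, recovery was 55.7%, 67.6%, 78.3% and 86.4%. In the highest decile, above 27.3-fold, it was 93.1% (92.2 to 94.0), and 80 of its 3052 sites were in neither low-cell list. Each low-cell library alone showed the same order, from 14.3% to 95.4% in replicate 1 and from 13.2% to 95.1% in replicate 2.

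The other standard replicate served as the measure of replicate error. Grouped by its own fold enrichment, standard replicate 1 was found in standard replicate 2 at 47.0% in its lowest decile, 95% in decile 5 and 100% in its highest. The same deciles were found in low-cell replicate 1 at 9.69%, 41.7% and 94.5%, and in low-cell replicate 2 at 8.85%, 38.8% and 94.1%. Thus the gap between protocols was widest in the middle of the range and nearly closed at its top. The low-cell lists behaved differently when read in the opposite direction. Peaks in the lowest decile of low-cell replicate 1 were found in the other low-cell list at 54.4% and in the standard lists at 84.2% and 84.9%. Weak low-cell peaks were therefore held by a standard list more often than by the second low-cell list. The standard lists were also longer, with 35717 and 36887 peaks against 19097 in low-cell replicate 2. The part of list length in this difference was not tested.

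**Figure D1:**
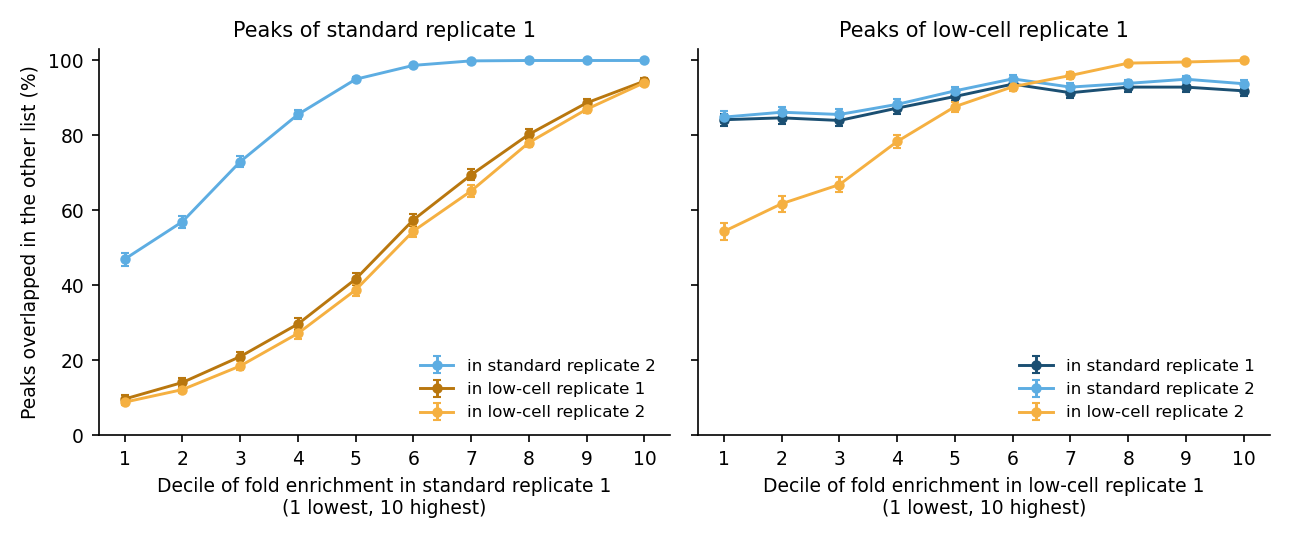
Share of peaks of 1 list (left: standard replicate 1, right: low-cell replicate 1) that overlap a peak of each other list, in percent, by decile of the list's own fold enrichment; points are shares and bars 95% Wilson intervals. In the left panel the low-cell curves climb from 9.69% and 8.85% to 94.5% and 94.1% while the second standard list reaches 95% by decile 5; in the right panel the standard curves are nearly flat.

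The standard sites with the highest fold enrichment were listed with their low-cell values. They were picked for high standard values, so a lower low-cell value follows in part from the choice and tests nothing. The strongest of those in both low-cell lists, at chr17:17259102-17259782, 8560 bp from NT5M, was 68.1-fold and 81.4-fold enriched in the standard lists and 23.7-fold and 14.3-fold in the low-cell lists. A site in an intron of the non-coding gene TARID, at chr6:133889958-133890540, measured 61.6 and 83.4 in the standard lists against 11.5 in each low-cell list. A site at chr5:110493674-110494269, 27782 bp from WDR36, measured 65.5 and 74.5 against 9.46 and 9.60. The other 2 of these 5 sites, in LINC01983 on chromosome 3 and near ASPG on chromosome 14, measured 65.3 to 73.9 in the standard lists and 12.7 to 24.2 in the low-cell lists.

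Fold enrichment was well ordered within a protocol and poorly ordered between protocols. Over the 15449 standard sites present in all 4 lists, the rank correlation of fold enrichment was 0.84 between the standard replicates and 0.74 between the low-cell replicates. Between a standard and a low-cell library it was 0.23 to 0.27. The rank correlation of the −log10 p-value was 0.84 and 0.72 within protocols and 0.29 to 0.35 between them. These values describe sites that share libraries and are not tests, and a site enters only if all 4 lists called it, which narrows the range of both measures. The median ratio of low-cell to standard fold enrichment was 0.516 for the replicates numbered 1, against 1.05 for the second standard replicate over the first.

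The ratio turned over along the range of standard enrichment. In the lowest decile the 288 shared sites had a median of 5.59 and 5.85 in the standard lists and of 7.59 and 7.23 in the low-cell lists. In the highest decile the 2842 shared sites had a median of 32 and 33.2 in the standard lists and of only 11.1 and 10.5 in the low-cell lists. The median ratio of low-cell to standard replicate 1 fell from 1.41 in the lowest decile to 0.337 in the highest. Since the deciles were set by the standard values, the standard medians follow from that choice. The low-cell medians cover only sites called in both low-cell lists, 288 of 3053 in the lowest decile and 2842 of 3052 in the highest. Sites below the low-cell threshold are left out. The low-cell medians and the ratio in the weak deciles therefore follow in part from this filter.

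**Figure D2:**
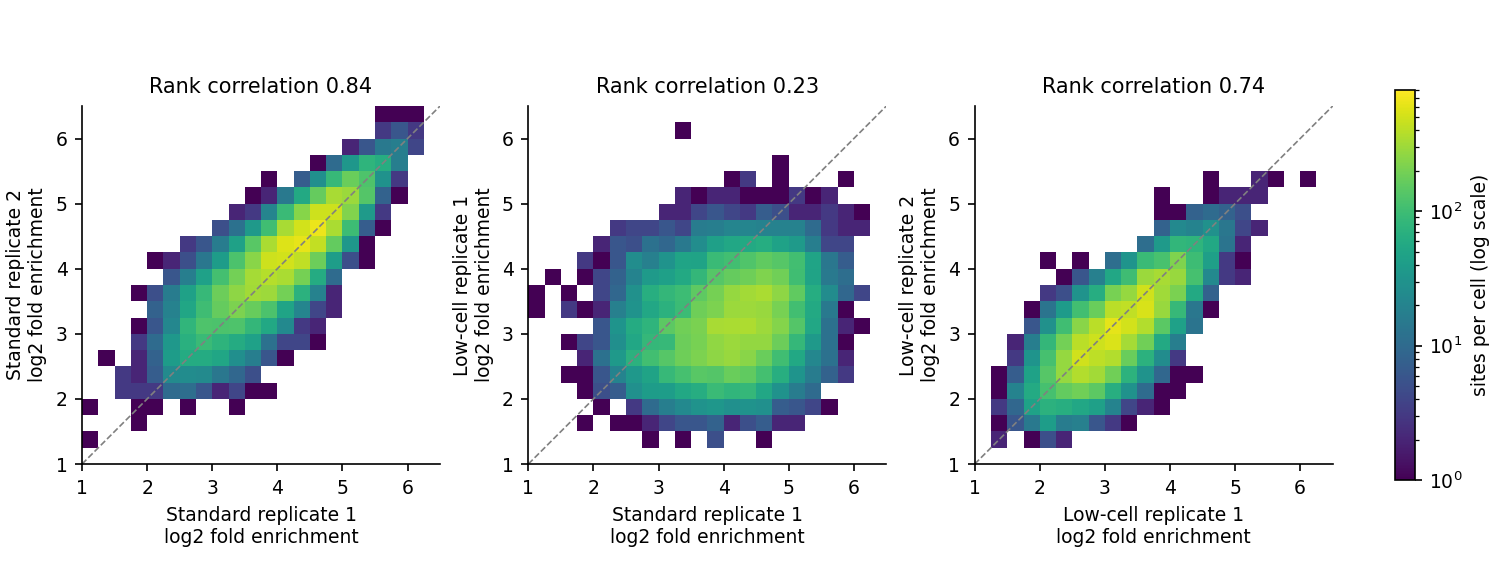
Log2 fold enrichment at the 15449 sites present in all 4 lists, between both standard replicates (left), standard replicate 1 and low-cell replicate 1 (middle) and both low-cell replicates (right); colour gives the number of sites per cell on a log scale and the dashed line marks equal values. The replicates lie along the line with rank correlations of 0.84 and 0.74, and the middle panel is a broad cloud with 0.23.

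Weak standard sites with high low-cell values show the other end of this range. Of the lowest decile of standard sites, the 5 with the highest mean low-cell fold enrichment measured 5.27 to 7.15 in the standard lists and 19.1 to 25 in the low-cell lists. The first lay in LINC02521 and the next 2 in the promoters of HCRTR1, an orexin receptor, and ZBTB34, a zinc-finger gene. The HCRTR1 site at chr1:32083918-32084252 measured 5.79 and 5.96 in the standard lists and 24.7 and 19.1 in the low-cell lists, and the ZBTB34 site at chr9:129622302-129622682 measured 5.59 and 6.93 against 23.5 and 19.9. The other 2 lay near UBE2V1 on chromosome 20 and TMEM270 on chromosome 7. GC content within 100 bp of the summit was 61.7% to 72.1% at these 5 sites, against a median of 47.3% over all standard sites. They were picked for their low-cell values, so the values describe them and test nothing.

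GC content moved with recovery over the whole set. Divided into 5 equal groups by GC content, standard sites below 39.8% GC were in both low-cell lists at 40.2%, and those above 56.2% GC at 66.8%, with the groups between at 44.6%, 48.5% and 53.0%. Median standard fold enrichment also rose from 11.6 to 14.9 across these groups. At a given standard enrichment the difference remained. In decile 5, 60.6% of 589 sites over 55% GC were recovered against 41.5% of 2463 other sites, and in the lowest decile 17.5% of 630 against 7.35% of 2423. At shared sites median low-cell fold enrichment rose from 7.15 to 11.4 in replicate 1 and from 6.55 to 10.6 in replicate 2 from the lowest to the highest GC group. The standard median went from 14.9 to 20.4 in group 4 and back to 19.1 in group 5. The part of base composition in these differences was not tested.

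**Figure D3:**
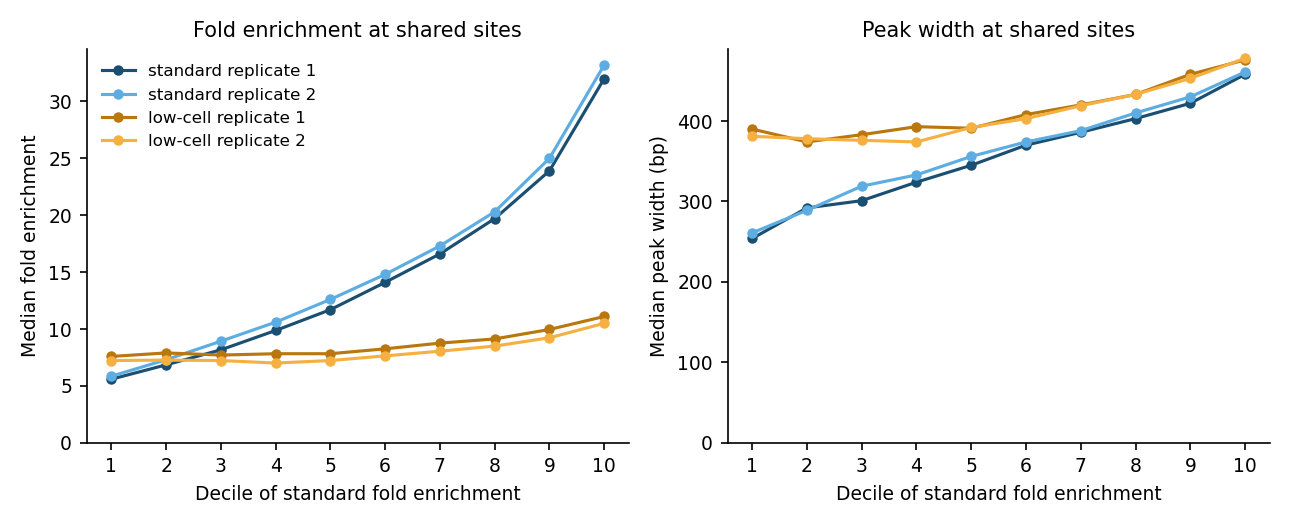
Median fold enrichment (left) and median peak width in bp (right) at standard sites found in both low-cell lists, by decile of mean standard fold enrichment, for each of the 4 libraries. Standard medians climb from about 5.59 to 33.2 while low-cell medians stay between 7.01 and 11.1, and low-cell peaks are wider in every decile.

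To assess the DNA sequence under the peaks, the CTCF core consensus was searched on both strands within 100 bp of each summit with up to 2 mismatches. It was present in 65.9% and 65.5% of standard peaks and in 77.0% and 75.9% of low-cell peaks. Among standard sites it was present in 86.3% (85.7 to 86.8) of those in both low-cell lists, in 71.2% (69.8 to 72.6) of those in 1 list and in 50.3% (49.4 to 51.2) of those in neither. Windows of the same length placed 1000 bp before the summits held it in 5.45% of cases. A match without mismatch was found in 19.3% of the sites in both lists and in 2.89% of those in neither.

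The consensus separated recovered from missing sites at every level of standard enrichment. In the lowest decile, 14.4% (190 of 1318) of sites with the consensus were recovered in both lists against 5.65% (98 of 1735) of sites without it. In decile 5 the shares were 53.0% of 2245 against 23.5% of 807, and in the highest 95% of 2602 against 82.0% of 450. Presence in other lists ran the same way. Of standard sites in both low-cell lists, 96.1% also had a peak in both LNCaP control lists, against 54.8% of those in neither. In decile 5, 50.5% of 2546 sites with both LNCaP peaks were recovered, against 18.6% of 506 without.

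The standard CTCF siRNA lists gave a further readout from libraries that the grouping did not use. Of the recovered sites, 82.0% kept a peak in both of these lists, compared with 40.3% of the sites in 1 low-cell list and 12.8% of the sites in neither. Within decile 2, 60.3% of the 267 sites that kept a peak after CTCF siRNA were recovered by the low-cell protocol, against 10.3% of the other 2785. Within decile 5 these shares were 69.8% of 1279 and 27.5% of 1773. The position of sites relative to genes was also compared. Sites within 1000 bp of the start of a coding gene made up 8.04% (7.62 to 8.48) of recovered sites and 8.02% (7.53 to 8.54) of missing ones, and introns 49.0% and 54.3%. Within deciles the promoter difference varied. It was widest in decile 2, where 25.9% of 290 promoter sites were recovered against 13.5% of 2762 others. In decile 5 the shares were 45.9% of 229 and 45.2% of 2823, and in decile 8 they were 75.2% of 206 and 78.6% of 2846. In the highest decile they were 92.4% of 210 and 93.2% of 2842.

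The 5 strongest standard sites found in neither low-cell list measured 38.7-fold to 73.3-fold in the standard lists. The site near BTNL2 was by far the strongest, with 72.2 and 73.3. The others lay in introns of ABHD12, a lipid hydrolase gene, with 42.7 and 49.4, of RFX3, a regulator of cilium genes, with 49.3 and 39.3, of UBR3, a ubiquitin ligase gene, with 40.0 and 46.5, and of CORO1C, a gene for an actin-binding protein, with 46.7 and 38.7. All 5 had a peak in both LNCaP control lists and in both standard CTCF siRNA lists. This is usual for sites this strong. Of the 3052 sites in the highest decile, 3034 had both LNCaP peaks and 3038 had both standard CTCF siRNA peaks. Neither of the low-cell CTCF siRNA lists had a peak at any of the 5. Such peaks were rare at all standard sites in neither low-cell list, at 0.225% in replicate 1 and 0.0270% in replicate 2.

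The BTNL2 site belonged to a stretch of chromosome 6 that the low-cell lists left nearly empty. This stretch was chosen after the values were seen, and its limits were set by the genes HLA-F and HLA-DPB1, at chr6:29690552-33057473. It holds the HLA genes of the major histocompatibility complex, which differ widely between people. Standard replicates 1 and 2 had 111 and 110 peaks in it, and low-cell replicates 1 and 2 had 1 and 2. Of 96 standard sites there, 1 or 1.04% (0.184 to 5.67) was in both low-cell lists and 94 were in neither. At the recovery of their own deciles, 59.2% of these 96 sites would have been in both lists. On the rest of chromosome 6, 44.8% of 1673 sites were recovered. The stretch held 15 sites of the highest decile, of which 14 were in neither low-cell list, out of 80 such sites genome-wide.

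The site that both low-cell lists called in this stretch was at chr6:32212701-32213157 and measured 22.5 and 19.8 in the standard lists. LNCaP control lists had 100 and 111 peaks in the stretch, and the standard CTCF siRNA lists 68 and 67. The low-cell CTCF siRNA lists had 3 and 0. The low-cell lists also carried peaks on contigs that hold alternative haplotypes of chromosome 6, 30 in replicate 1 and 14 in replicate 2, where the standard lists had 0. Within 2000000 bp before the stretch 6 of 34 standard sites were recovered, and within the same distance after it 13 of 42. A second span with alternative haplotypes, from CRHR1 to KANSL1 on chromosome 17, held only 6 standard sites. Of these, 4 or 66.7% (30.0 to 90.3) were in both low-cell lists, against 77.7% at the recovery of their own deciles. The low-cell lists carried 9 and 8 peaks on alternative haplotype contigs for this span. The part of the alternative contigs in the missing peaks was not tested.

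Sites found by the low-cell protocol alone were counted against the longer standard lists. Of 16816 low-cell sites, 931 or 5.54% (5.20 to 5.89) had a peak in neither standard list and 511 or 3.04% in 1 of them. With lists of equal length the share in neither was 16.2%, 2651 of 16390 sites, and when 1 list per protocol was enough to make a site it was 8.73%, 1949 of 22328. The 931 sites were spread over the whole range of low-cell enrichment, with 4.64% in the lowest decile of low-cell sites and 5.77% in the highest, and their median fold enrichment of 8.36 lay near the 8.71 of low-cell sites in both standard lists. Chromosome X had the largest share of such sites among the 23 chromosomes, 51 of 456 or 11.2%. The CTCF core consensus was present in 64.9% (61.8 to 67.9) of them, against 82.3% of low-cell sites in both standard lists and 8.81% of windows 1000 bp away. GC content had a median of 65.2%, against 49.3% for low-cell sites in both standard lists.

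**Figure D4:**
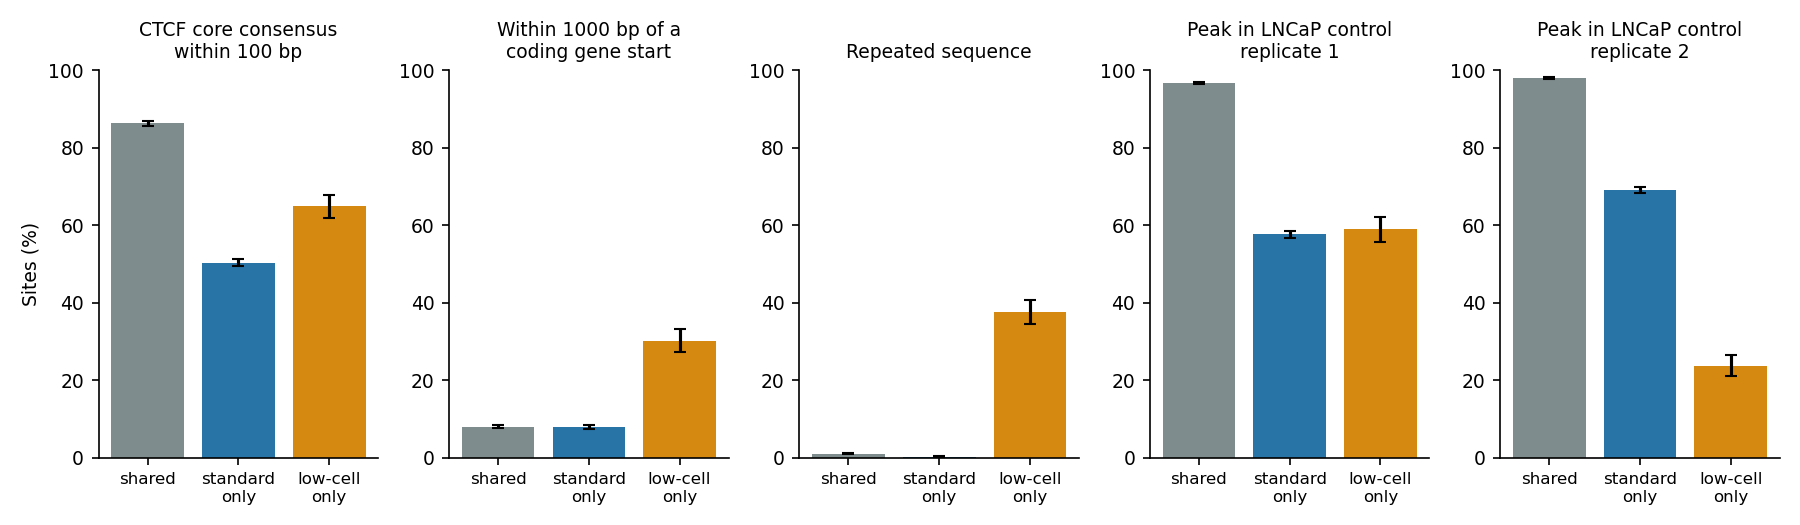
Share of sites, in percent with 95% Wilson intervals, that hold the CTCF core consensus, lie within 1000 bp of a coding gene start, lie in repeated sequence or have a peak in LNCaP control replicate 1 or 2, for 15449 standard sites in both low-cell lists (shared), 11099 in neither (standard only) and 931 low-cell sites in neither standard list (low-cell only). The low-cell only sites stand apart in repeated sequence, at 37.5%, and near gene starts, at 30.1%. A LNCaP peak was present at 59.0% of low-cell only and 57.7% of standard only sites in replicate 1, but at 23.6% and 69.2% in replicate 2.

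Repeated sequence marked a large group of these sites. A site was called repeated when at least 50% of the 50-base stretches within 100 bp of its summit occurred again in the assembly. This held for 349 or 37.5% (34.4 to 40.6) of the sites found by the low-cell protocol alone, and for 1.16% of low-cell sites in both standard lists. The strongest 5 sites of the group were all repeated and all on chromosome X. The first, at chrX:114960191-114960998 in DANT1, measured 53.1 and 40.2 in the low-cell lists. Both sites near PBDC1, at chrX:75369122-75369507 and chrX:75365263-75365707, measured 49.8 and 41, and 43.6 and 42.3. The remaining 2, again in DANT1, measured 43.6 and 38.4, and 44 and 38.0. None of the 5 overlapped a peak in either LNCaP control list or either standard CTCF siRNA list. Reads with several genomic positions were discarded for those lists, so this absence cannot show whether such repeated sites were bound.

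Grouping neighbours of at most 10000 bp gave 7 clusters of at least 4 such sites. The largest was the array in DANT1 and DANT2 at chrX:114960191-115002746, known as the macrosatellite DXZ4, with 16 sites at a median spacing of 2980 bp, all 16 repeated and 15 with the consensus. Their mean low-cell fold enrichment ran from 4.85 to 46.6, and neither standard list nor LNCaP control list had a peak between its limits. Low-cell CTCF siRNA replicate 1 had 8 peaks there and replicate 2 had 0. Another cluster of 4 sites, at chr1:149804238-149832642, lay over histone genes including H3C14 and H2AC19, with no consensus at any of the 4. For the standard and LNCaP lists the methods state that reads with several genomic positions were discarded, and no such step is stated for the low-cell lists. The part of this step in the repeated sites was not tested.

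The other 582 sites found by the low-cell protocol alone were rich in G and C and close to gene starts. Their median GC content was 69.2%, and 44.8% of them lay within 1000 bp of the start of a coding gene, against 5.44% of the repeated sites. The consensus was present in 56.5% of them. A peak was present at 86.8% of them in LNCaP control replicate 1 and at 31.4% in LNCaP control replicate 2, so these LNCaP replicates differed strongly at such sites. The strongest, chosen after the values were seen, lay in an intron of SYT8 and measured 27.5 and 27.9 in the low-cell lists. The next, in the promoter of the kinesin gene KIF1B at chr1:10270085-10270582, measured 27 and 22.8. Both had peaks in both LNCaP control lists. A site in the promoter of ACHE, which encodes acetylcholinesterase, measured 26.6 and 19.1.

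Low-cell peaks were wider. Median width was 338 and 343 bp in the standard lists and 399 and 406 bp in the low-cell lists, a mean of 402.5 ± 4.95 against 340.5 ± 3.54 bp (SD, n = 2 each), with an exact two-sided permutation p of 0.33, the smallest possible. At the 15449 sites present in all 4 lists the medians were 395 and 400 bp against 431 and 429 bp. The difference in mean fell from 62.0 bp over all peaks to 32.5 bp at shared sites. It was largest where standard enrichment was weakest, with 254 and 261 bp against 390 and 381 bp in the lowest decile, and smallest at the top, with 458 and 461 bp against 476 and 478 bp. Since standard width rises with the standard enrichment that set the deciles, the narrow standard peaks of the lowest decile follow in part from the grouping. The narrowest peaks measured 200 bp in both standard lists, and 208 and 217 bp in the low-cell lists. Whether both protocols were called with the same MACS2 settings is not given in the sources used here, and the part of such settings in the widths was not tested. Low-cell peaks seldom merged neighbours. Of low-cell peaks that overlapped standard replicate 1, 0.571% and 0.621% held 2 or more of its peaks. Among standard replicate 2 peaks that overlapped it, this share was lower, at 0.186%.

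Summits agreed less closely between the low-cell replicates than between the standard ones. The low-cell libraries had fewer reads, and the part of depth in summit placement was not tested. At sites present in all 4 lists the median distance between summits was 17.0 bp for the standard replicates and 39.0 bp for the low-cell replicates. Between protocols it was 38.0 to 39.0 bp, no larger than between the low-cell replicates. Summits lay within 50 bp of each other at 91.1% of sites for the standard replicates, at 60.5% for the low-cell replicates, and at 61.5% to 62.4% between protocols. The distance between protocols was thus similar to that between the low-cell replicates. It pairs a low-cell summit with a standard one, so this similarity cannot show that both protocols placed summits at the same point.

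The position of the motif gave a fixed point for this comparison. At the 9044 sites with 1 peak in each list and a consensus match with at most 1 mismatch, summits lay a median of 18.5 and 17.5 bp from the centre of the match in the standard lists and 32.5 and 33.5 bp in the low-cell lists. The share within 20 bp was 55.6% and 56.3% against 31.9% and 30.6%. Matches were chosen around the summit of standard replicate 1, which favours the standard lists. Standard summits were also shifted to one side. Measured along the strand of the match, their median lay 13.5 bp before its centre in both replicates, and 29.0% and 26.5% of them fell past it. The low-cell medians were 2.5 and −3.50 bp, with 52.4% and 47.6% of summits past the centre.

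**Figure D5:**
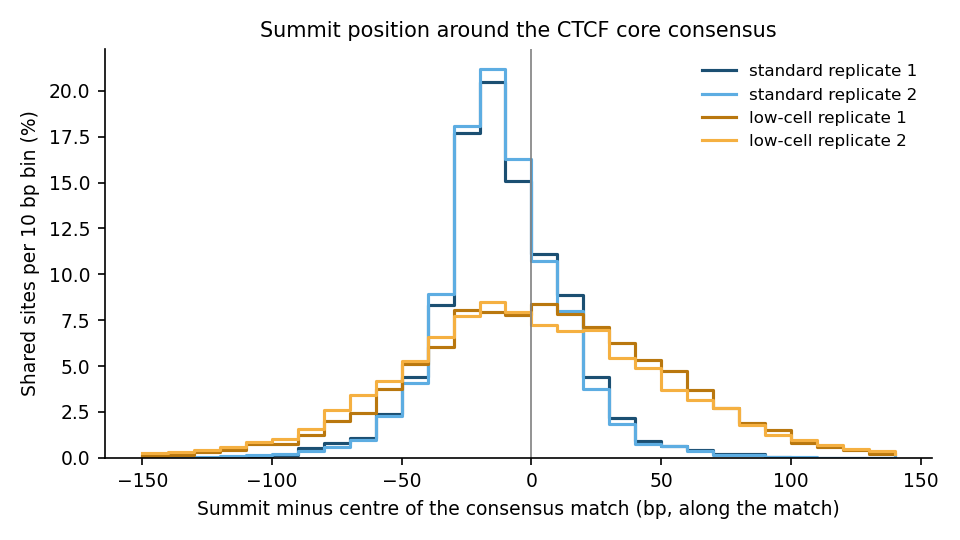
Distance from the centre of the CTCF core consensus match to the peak summit in bp, along the strand of the match, as percent of 9044 shared sites per 10 bp bin for each library. Standard summits pile up before the centre, with medians of −13.5 bp, and low-cell summits form a broad, nearly symmetric distribution.

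Sites near genes of 5 lists were counted next. Around 18 genes for CTCF, cohesin and other chromatin architecture proteins, extended by 10000 bp on each side, 20 of 37 standard sites or 54.1% (38.4 to 69.0) were in both low-cell lists, against 45.7% at the recovery of their own deciles. The strongest lay in the promoter of CTCFL, a CTCF paralogue of the germline, at chr20:56070207-56070684, with 28.9 and 30.0 in the standard lists and 8.48 and 11.9 in the low-cell lists. The strongest one missing from both low-cell lists lay in an intron of the cohesin loader gene NIPBL, with 9.19 and 13.4. No standard site lay near CTCF itself, where 1 site was called by the low-cell protocol alone.

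Around 26 fibroblast genes, 36 of 61 standard sites or 59.0% (46.5 to 70.5) were recovered, against 51.4% at their own deciles. COL1A1, which encodes a collagen chain, had a promoter site with 15.8 and 19.7 in the standard lists and higher values of 30.3 and 34.3 in the low-cell lists. It was picked out after its values were seen. ACTA2, which encodes smooth muscle actin, had 5 sites, 3 of them in both low-cell lists and 2 strong ones not. The site at chr10:90692328-90692927 measured 34.8 and 39.9 in the standard lists, was absent from low-cell replicate 1 and measured 2.94 in replicate 2. The site at chr10:90711226-90711814 measured 34.0 and 28.9 and was absent from both low-cell lists.

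Around 20 loci known for CTCF insulators, 20 of 36 sites or 55.6% (39.6 to 70.5) were recovered, against 47.8% at their own deciles. All 5 sites at H19 and IGF2, imprinted neighbours that share an insulator, were in both low-cell lists. The strongest at IGF2, at chr11:2172652-2173614, measured 34.0 and 32.9 in the standard lists and 18.5 and 26.2 in the low-cell lists. At the protocadherin gamma genes, counted over the PCDHGA1 gene model, 6 of 18 sites were in both low-cell lists, 5 in 1 and 7 in neither. The strongest missing site there, in a promoter at chr5:140796947-140797301, measured 13.2 and 18.5. The strongest site of the group, near BCL6, measured 43.7 and 39.9 in the standard lists and 10.1 and 14.2 in the low-cell lists.

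Around 12 housekeeping genes 8 of 20 sites or 40.0% (21.9 to 61.3) were recovered, against 41.5% at their own deciles. The 4 sites near the tubulin gene TUBB, which lies in the HLA stretch, were all in neither low-cell list, and the strongest measured 15.7 and 23.9. Of 10 prostate genes 9 were found in the annotation by name, with 6 of 7 sites recovered, or 85.7% (48.7 to 97.4), against 69.5% at their own deciles. The strongest, near SLC45A3, measured 37.7 and 27.5 in the standard lists and 15.2 and 15.7 in the low-cell lists. The missing site, in the promoter of STEAP2, measured 12.1 and 6.35. All 5 intervals held the share at the sites' own deciles.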

How the data were processed

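CTCF ChIP-seq from 2 standard and 2 low-cell libraries of control-transfected IMR90 cells was analysed, with LNCaP control and IMR90 CTCF siRNA lists as other readouts. The authors used Bowtie on hg19 for the standard and LNCaP reads and dropped duplicates and reads with several positions. They used cutadapt and BWA on hg19 for the low-cell reads, and a script of the kit's maker that reads molecular identifiers to drop duplicates, with no step on reads with several positions given in the sources used here. MACS2 called all lists. An assumed fragment size is stated for CTCF peaks in general, MACS2 settings of the low-cell lists are not given separately in the sources used here, and no input library is named in the sources used here. The deposited fold enrichment is a ratio to local background, and the deposited p-values and q-values are on a −log10 scale. Lists were called by the authors per library, and the deposited summit offset was read as counted from the peak start.

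Sites were built (Python 3.11.15; pandas 2.3.3; numpy 2.4.6; scipy 1.17.1) as runs of peaks of both replicates linked by an overlap of at least 1 bp. At a site with several peaks of a library the highest was used. Genes came from GENCODE 44 on GRCh37 coordinates. A promoter is within 1000 bp of the start of a coding transcript. Repeats were searched as 50-base stretches, 16 per site, on both strands of the GRCh37 primary assembly. Functions were tested on simulated data. Libraries were compared by exact permutation tests and sites by shares with 95% Wilson intervals. The sources used here do not state whether replicate numbers pair the libraries across protocols, and the main results treat them as unpaired. Differences between replicates 1 and 2 correlated at 0.011 between protocols over 15449 sites. This cannot show whether same-numbered libraries shared a culture. Depth per library is unknown from the peak files. The permutation p-values compare 2 libraries per protocol and cannot fall below 0.33, whatever the spread between replicates. The study states biological duplicates for the standard protocol and duplicates for the low-cell protocol. Peaks outside chromosomes 1 to 22 and X, between 2 and 204 per list, were left out. The named sites are the 5 strongest standard sites in both and in neither low-cell list, the 5 strongest of the low-cell protocol alone, the 5 of the lowest standard decile with the highest low-cell values, and the strongest standard and strongest missing site of each gene list. For the housekeeping list the strongest site is not reported here. Members and gene lists were chosen with earlier results of these data known.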

Additional observations from a re-analysis of the deposited data

How the results depend on the processing

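Recovery of standard sites in both low-cell lists, 50.6% as reported, became 44.8% with summits within 100 bp, 49.8% at a q-value of at most 0.001, 48.8% with either library in place of both, 73.0% with lists of equal length and 43.0% to 58.3% with 1 replicate left out. Its rise from the lowest to the highest decile, 83.7 percentage points, became 80.1 with summits within 100 bp, 90 with either library, 41.5 with lists of equal length, 85.5 with deciles of −log10 p-value and 81.0 to 87.0 with 1 replicate left out. Sites found by the low-cell protocol alone, 931 as reported, became 1949 with either library, 2651 with lists of equal length, 582 without repeated sequence and 1062 to 1593 with 1 replicate left out. Without low-cell replicate 2 the count was 1593. Equal lists are shorter standard lists, so both changes follow in part from their construction. With the replicate number as a block, recovery was 49.2%, its rise 85.9 points and the mean number of low-cell peaks absent from the same-numbered standard list 1854. The block left the differences in number of peaks and width at −16664 and 62.0 bp, and the share of summits within 50 bp at 62.0%.

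The difference in consensus share between recovered and missing sites, 35.9 points, became 38.2 with up to 1 mismatch. The between-protocol rank correlation, a mean of 0.25, became 0.320 for −log10 p-values and 0.200 within 5 groups of GC content, and ran from 0.230 to 0.270 with 1 replicate left out. The cell line difference of 49.1 points became 5.57 without the limit on enrichment and 44.9 to 53.4 with 1 low-cell replicate left out. Alternatives that left out the HLA stretch or repeated sequence, those of the rank correlation, those of the cell line check and the replicate block of the summit distances were chosen after seeing the data. Of 70 alternatives to 9 results, 43 were rated the same as the main result and 27 moved. None was rated as turning a direction. Recovery, the count of low-cell only sites, the summit share and the consensus share were rated only as same or moved. They could therefore not be rated as turned. The number of reads, which the lists do not hold, limits what a missing peak can show.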
